A study of Mus musculus with 8 samples.

Results

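Hearts of mice with extra perilipin 5 were compared with control hearts for 10 genes that shape mitochondria and keep their genome: Mfn1, Mfn2, Opa1, Oma1, Dnm1l, Fis1, Mff, Tfam, Polg and Nrf1. They were chosen by name, as array rows annotated with exactly 1 of these symbols. All 10 were found, each on 1 row, among 19938 genes measured. The study held 4 MHC-Plin5 hearts and 4 control hearts, all from male mice of a c57/bl background, 12 weeks old and labelled as fasted. MHC-Plin5 mice overexpress Plin5, the gene of a lipid droplet coat protein, in cardiomyocytes, the contracting cells of the heart. The labels spell out neither the promoter nor what the control mice carry, nor how long the animals fasted. Levels are log2 values from whole-transcript arrays, with 1 array a heart, so a difference of 1 is a doubling. A difference is the MHC-Plin5 mean minus the control mean. A gene is called when the limma p, adjusted by Benjamini-Hochberg over all 19938 genes, is under 0.05.

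Mitochondria in a heart muscle cell join and divide, and each carries copies of its own small circular genome. The mitofusins Mfn1 and Mfn2 join outer membranes and Opa1 joins inner membranes, while the protease Oma1 cuts Opa1 and so limits inner membrane fusion. Dnm1l (DRP1) is the motor protein that pinches mitochondria apart, and Fis1 and Mff sit on the outer membrane, where Mff recruits Dnm1l. Tfam packages and transcribes the mitochondrial genome, Polg is the catalytic subunit of its polymerase, and Nrf1 is a nuclear transcription factor of many mitochondrial genes. In adult mouse heart, loss of mitofusins or of Dnm1l is known to damage the muscle.

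The genotype label was checked on Plin5 itself. Its log2 level was 12.17, 12.69, 12.63 and 12.08 in MHC-Plin5 hearts 1 to 4 and 8.92, 8.87, 9.04 and 8.58 in control hearts 1 to 4. The difference of 3.54 (SE 0.16, limma adjusted p = 6.9e-07) placed every MHC-Plin5 heart above every control heart, with an exact two-sided permutation p of 0.0286, the smallest that 4 against 4 hearts can give. Array medians lay between 5.99 and 6.24 on the log2 scale, with control 2 (6.24) and MHC-Plin5 4 (6.18) above the other hearts (at most 6.04). Nothing in the labels gives a batch.

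None of the 10 genes was called in the limma fit (0 of 10), where 3.25% of all genes were called. In simulated data the same fit called a true change of -0.3 in 2% of cases. There the changed genes were drawn at random over all genes and were fewer than the 648 called in the real fit. The share therefore need not hold for these 10 genes. A missing call therefore says little about differences of that size. At an unadjusted p under 0.05, 2 of the 10 were lower in MHC-Plin5 hearts, Opa1 and Mfn1, beside 7.86% of all genes, and 0 were higher, beside 8.69%. The fusion genes had the most negative differences together with Oma1, between -0.20 and -0.32, against -0.16 to -0.02 for the fission genes and -0.11 to 0.12 for the genes of genome upkeep. In all, 9 of the 10 differences were under 0, where 57.5% of all genes had a difference under 0. The median over the 10 genes was -0.14, beside -0.03 over all genes tested. In 3 of the 10, all of them fusion genes, the 4 MHC-Plin5 hearts lay below the 4 control hearts, a pattern that 5.0% of all genes showed. The 10 genes were chosen with earlier results of these data known. Setting their shares beside those of all genes therefore does not test them.

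**Figure D1:**
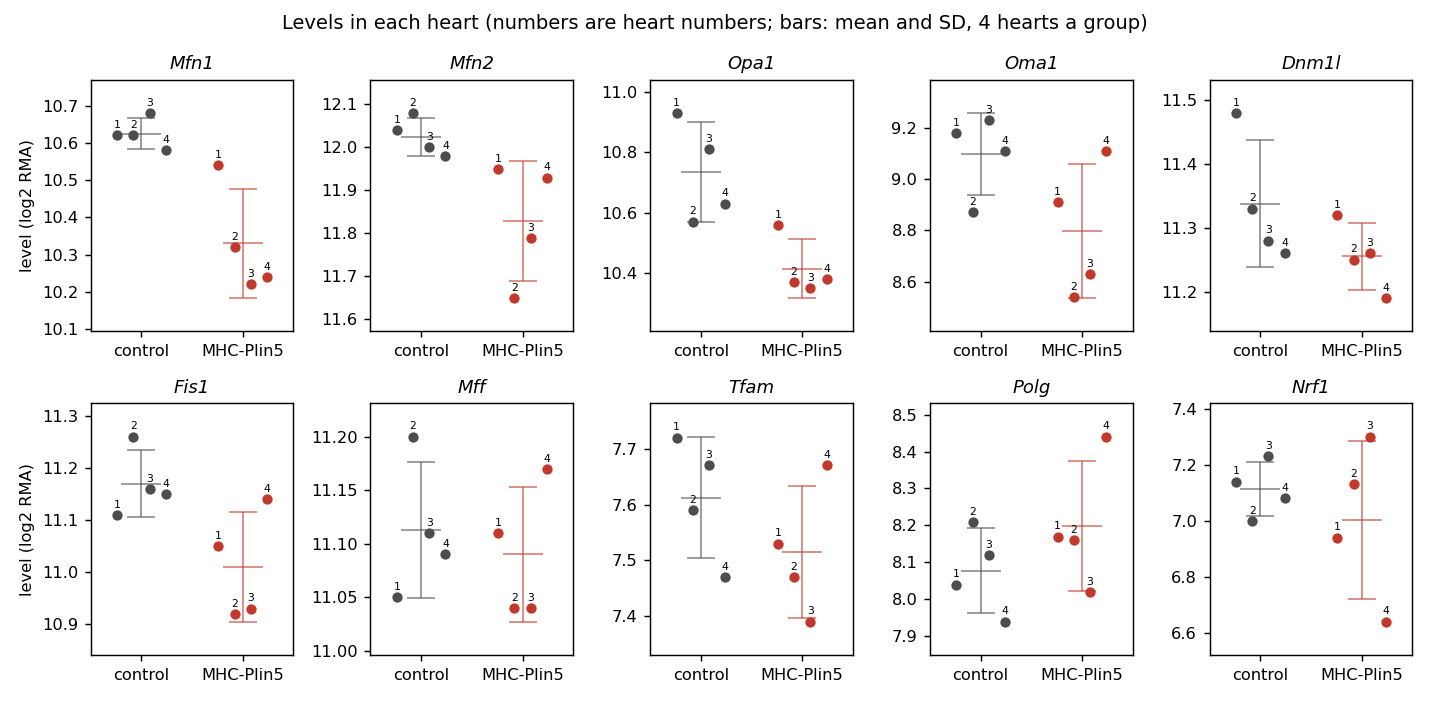
Log2 level of each of the 10 genes (vertical axis, a scale of its own in each panel) in 4 control hearts (grey) and 4 MHC-Plin5 hearts (red), with heart numbers beside the points and bars for the mean and SD. The groups are apart for Mfn1, Mfn2 and Opa1 and overlap for the other genes.

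Short stretches upstream of 4 member genes are shown because they hold recognition words of NRF1, itself the product of a member, or of the ETS factors, to which GABP, another regulator of mitochondrial genes, belongs. These 4 were chosen after the differences were known. They come from RefSeq promoters of the build GRCm38.p6, which run from 250 bases before to 50 bases after a start site, and all 10 genes had a promoter in that table, 16 promoters in all. Each line gives the 100 bases directly before the start site, 5′ to 3′ on the strand of the gene, with the matched word in capitals. Where a gene has other start sites, this stretch may lie inside a longer transcript.
Opa1, plus strand of chr16:29579234-29579333, NRF1 word: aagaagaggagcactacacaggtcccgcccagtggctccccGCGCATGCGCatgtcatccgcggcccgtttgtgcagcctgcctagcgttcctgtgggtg
Oma1, plus strand of chr4:103313746-103313845, NRF1 word: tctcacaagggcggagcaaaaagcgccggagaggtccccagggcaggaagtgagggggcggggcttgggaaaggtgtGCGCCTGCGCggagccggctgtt
Mfn1, plus strand of chr3:32529382-32529481, ETS word: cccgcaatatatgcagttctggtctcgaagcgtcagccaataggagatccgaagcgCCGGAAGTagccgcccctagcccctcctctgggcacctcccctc
Tfam, minus strand of chr10:71238045-71238144, ETS word: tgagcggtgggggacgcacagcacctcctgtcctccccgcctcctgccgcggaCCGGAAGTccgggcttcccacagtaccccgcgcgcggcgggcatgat

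The NRF1 word, whose matches are the capitals in Opa1 and Oma1, was searched on both strands and stood in 4.6% of the 32851 promoters of the table. Of the 16 member promoters 2 held it, that of Opa1 with its first base at position -59 and that of Oma1, on the reverse strand, at position -23, where -1 is the base before the start site. The ETS word CCGGAAGT, the kind of site that the factor GABP binds, stood in 3.89% of all promoters and in 5 of the 16, those of Mfn1, Tfam and Polg and 2 of Fis1. The word TCAAGGTCA of the estrogen-related receptors stood in 0.423% of all promoters and in 0 of the 16. No member held both an NRF1 and an ETS word, and a match describes the sequence and not bound protein.

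Opa1, whose product fuses inner membranes and holds cristae in shape, had the most negative difference of the 10. Its log2 level was 10.93, 10.57, 10.81 and 10.63 in control hearts 1 to 4, and 10.56, 10.37, 10.35 and 10.38 in MHC-Plin5 hearts 1 to 4. The groups did not overlap, but the gap between the lowest control heart and the highest MHC-Plin5 heart was 0.01. Means were 10.74 ± 0.17 and 10.41 ± 0.10 (SD, n = 4 each), a difference of -0.32 (SE 0.11, 95% interval -0.56 to -0.08, limma adjusted p = 0.15). As a percentage the estimate is -20.0%, with an interval from -32.2% to -5.68%.

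Mfn1, the outer membrane fusion protein with the stronger tethering activity, came next among the fusion genes. Control 1 to 4 had 10.62, 10.62, 10.68 and 10.58, a spread of 0.04 (SD), and MHC-Plin5 1 to 4 had 10.54, 10.32, 10.22 and 10.24, a spread of 0.15. Hearts 2 to 4 of the MHC-Plin5 group were well below the controls, while MHC-Plin5 1 lay 0.04 under the lowest of them. The difference was -0.29 (SE 0.10, 95% interval -0.51 to -0.07, limma adjusted p = 0.155).

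Mfn2, which also tethers mitochondria to the endoplasmic reticulum, had 12.04, 12.08, 12.00 and 11.98 in control hearts 1 to 4. In MHC-Plin5 hearts 1 to 4 it had 11.95, 11.65, 11.79 and 11.93. MHC-Plin5 1 and 4 stood just under the controls and MHC-Plin5 2 and 3 lower. Its difference was -0.20 (SE 0.10, 95% interval -0.41 to 0.02, limma adjusted p = 0.351), with a gap of 0.03 between the groups.

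Oma1, the protease that cuts Opa1, had an estimate as negative as those of the fusion genes but groups that overlapped. It stood at 9.18, 8.87, 9.23 and 9.11 in control hearts 1 to 4 and at 8.91, 8.54, 8.63 and 9.11 in MHC-Plin5 hearts 1 to 4. MHC-Plin5 4 was at the control mean of 9.10, MHC-Plin5 2 and 3 were under every control heart, and control 2 was the lowest control. The difference was -0.30 (SE 0.14, 95% interval -0.60 to 0.01, limma adjusted p = 0.314). With array weights, which let limma count variable arrays less, Opa1 (-0.36, adjusted p = 0.0483) and Oma1 (-0.44, adjusted p = 0.0431) were called, in a fit that called 8.15% of all genes. Under the other 17 alternatives, 0 of the 10 genes were called.

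**Figure D2:**
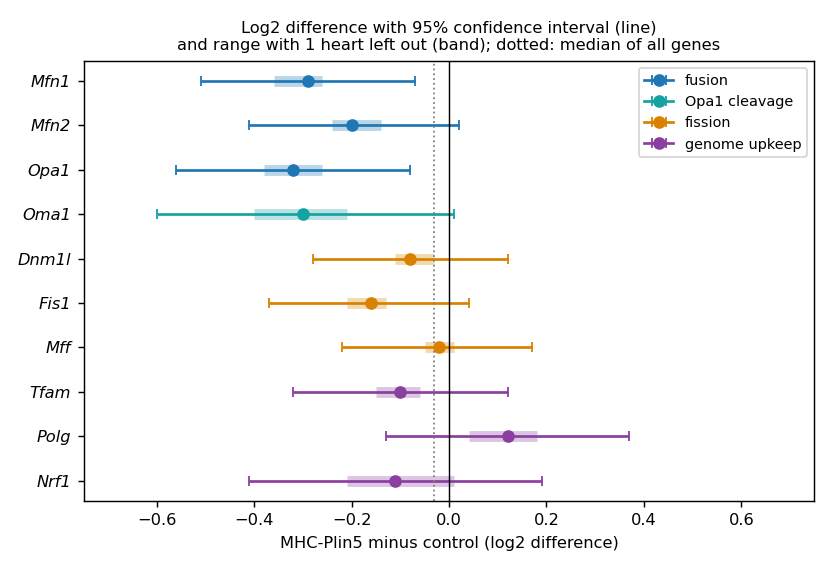
Log2 difference, MHC-Plin5 minus control (horizontal axis), for each gene (vertical axis), with the 95% interval as a line and the range of the estimate with any 1 heart left out as a band; colours give the role and the dotted line the median of all genes, -0.03. The intervals of Mfn1 and Opa1 lie under 0, and those of the other 8 genes include 0.

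The fission genes lay closer to the control levels. Dnm1l, the fission motor, had 11.48, 11.33, 11.28 and 11.26 in control hearts 1 to 4 and 11.32, 11.25, 11.26 and 11.19 in MHC-Plin5 hearts 1 to 4. Control 1 was the highest heart, and the other hearts of both groups overlapped. Its difference was -0.08 (SE 0.09, limma adjusted p = 0.725), and the 95% interval ran from -0.28 to 0.12, or from -17.8% to 8.63%.

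Mff, the receptor that brings Dnm1l to the outer membrane, had 11.05, 11.20, 11.11 and 11.09 in control hearts 1 to 4 and 11.11, 11.04, 11.04 and 11.17 in MHC-Plin5 hearts 1 to 4. The groups lay within the same range. Its difference of -0.02 (SE 0.09, 95% interval -0.22 to 0.17, limma adjusted p = 0.933) was 0.02 when arrays were centred on their medians, so it has no settled direction.

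Fis1, a tail-anchored protein of the outer membrane, had the most negative difference of the fission genes. It had 11.11, 11.26, 11.16 and 11.15 in control hearts 1 to 4 and 11.05, 10.92, 10.93 and 11.14 in MHC-Plin5 hearts 1 to 4. MHC-Plin5 1, 2 and 3 were under the lowest control, and MHC-Plin5 4 was inside the control range. The difference was -0.16 (SE 0.09, 95% interval -0.37 to 0.04, limma adjusted p = 0.431). Whether fission and fusion genes differ in their response was not tested, and the interval of Fis1 overlaps those of the 3 fusion genes.

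The genes of genome upkeep, Tfam, Polg and Nrf1, showed small differences of either sign. Tfam had 7.72, 7.59, 7.67 and 7.47 in control hearts 1 to 4 and 7.53, 7.47, 7.39 and 7.67 in MHC-Plin5 hearts 1 to 4. The groups overlapped over most of their range. The difference was -0.10 (SE 0.10, 95% interval -0.32 to 0.12, limma adjusted p = 0.688).

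Polg was the only one of the 10 with a difference above 0. Its levels were 8.04, 8.21, 8.12 and 7.94 in control hearts 1 to 4 and 8.17, 8.16, 8.02 and 8.44 in MHC-Plin5 hearts 1 to 4. MHC-Plin5 4 was the highest heart, and the other MHC-Plin5 hearts lay within the control range. The difference was 0.12 (SE 0.11, 95% interval -0.13 to 0.37, limma adjusted p = 0.661), and 0.04 without MHC-Plin5 4.

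Nrf1 varied more among MHC-Plin5 hearts (SD 0.28) than among control hearts (SD 0.09). Control 1 to 4 had 7.14, 7.00, 7.23 and 7.08, and MHC-Plin5 1 to 4 had 6.94, 7.13, 7.30 and 6.64. MHC-Plin5 3 was the highest heart of all and MHC-Plin5 4 the lowest. Its difference was -0.11 (SE 0.14, 95% interval -0.41 to 0.19, limma adjusted p = 0.757), and 0.01 without MHC-Plin5 4.

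The MHC-Plin5 hearts were not alike. Averaged over Mfn1, Mfn2 and Opa1, the deviation from the control mean was -0.11, -0.35, -0.34 and -0.28 in MHC-Plin5 hearts 1 to 4, and between -0.07 and 0.07 in the control hearts. Over Dnm1l, Fis1 and Mff it was -0.05, -0.14, -0.13 and -0.04, with -0.04 to 0.05 in the control hearts. For Tfam, Polg and Nrf1 together it was -0.05, -0.02, -0.03 and -0.02, with -0.10 to 0.07 in the control hearts. MHC-Plin5 4 was low in Mfn1 (-0.39) and Opa1 (-0.35) while at control levels in Oma1 (0.01) and Fis1 (-0.03), and MHC-Plin5 2 and 3 were low in all 4.

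MHC-Plin5 2 and 3 were also the hearts with the highest Plin5 (12.69 and 12.63). In 7 of the 10 genes (Mfn2, Opa1, Oma1, Fis1, Mff, Tfam and Polg) they were the lowest of the MHC-Plin5 hearts, an order that 28.6% of all 19938 genes showed. Some margins were very small. Polg had 8.16 in MHC-Plin5 2, above the control mean, and 8.17 in MHC-Plin5 1. Opa1 had 10.37 in MHC-Plin5 2 and 10.38 in MHC-Plin5 4. Cardiomyocyte markers, listed below, had the same order on average, with mean deviations of -0.20 and -0.33 in MHC-Plin5 2 and 3. In MHC-Plin5 1 and 4 they had -0.07 and 0.01. With 4 hearts this order was not tested, and neither was a link to the Plin5 level.

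**Figure D3:**
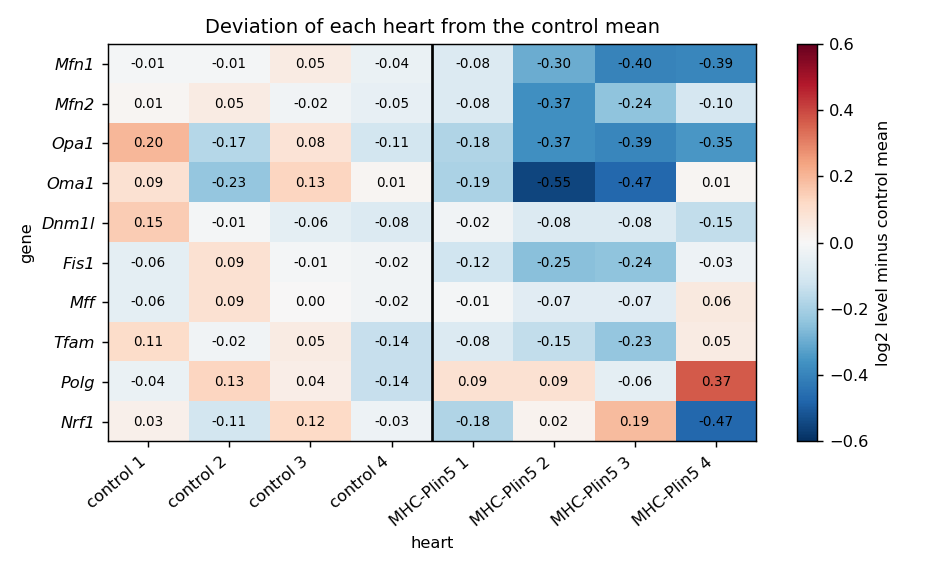
Log2 level minus the control mean for each gene (vertical axis) in each heart (horizontal axis), blue below and red above the control mean, with the value in each cell. Mfn2, Opa1 and Oma1 are bluest in MHC-Plin5 2 and 3, where Oma1 has -0.55 and -0.47, and MHC-Plin5 4 is low in Mfn1, Opa1 and Nrf1 (-0.47).

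Markers of cell types were read beside these values, since in heart tissue fewer cells of a type and less RNA per cell cannot be told apart. Of 10 cardiomyocyte markers, 0 were called and 9 had a difference under 0, beside 57.5% of all genes. Their median was -0.14, as for the 10 mitochondrial genes. The mean log2 level of these markers ran from 13.52 to 13.58 in control hearts and from 13.22 to 13.56 in MHC-Plin5 hearts. That is near the highest value on the arrays, 14.66, and well above the levels of the 10 genes. By heart their mean deviation was -0.07, -0.20, -0.33 and 0.01 in MHC-Plin5 hearts 1 to 4. In the same hearts the mean deviation of the 3 fusion genes was -0.11, -0.35, -0.34 and -0.28. The array of MHC-Plin5 4 had a raised median (6.18). Whether the marker and fusion means move together was not tested. The smallest p among the cardiomyocyte markers was that of Myl3, a myosin light chain (-0.30, limma adjusted p = 0.296). Ckm, the muscle creatine kinase, followed (-0.29, adjusted p = 0.419).

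Lists of other cell types had medians of either sign. All 8 fibroblast markers had a difference above 0 (median 0.33, mean level 8.73 to 9.27 in control and 8.88 to 9.69 in MHC-Plin5 hearts, 0 called), led by the receptor Pdgfra (0.38, limma adjusted p = 0.142) and the matrix protein Lum (0.40, adjusted p = 0.323). So did all 8 macrophage markers (median 0.28, mean level 8.21 to 8.70 and 8.47 to 9.10, 0 called), led by Cd14 (0.40, limma adjusted p = 0.134). The 8 endothelial markers had a median of -0.03 (mean level 9.89 to 10.07 and 9.81 to 10.16, 0 called). Among 7 markers of smooth muscle cells and pericytes (median 0.04, mean level 9.34 to 9.76 and 9.16 to 10.23), the pericyte channel Kcnj8 fell by 0.43 (SE 0.10, limma adjusted p = 0.0377) and Rgs5, another pericyte gene, had -0.36 (adjusted p = 0.0951), while 4 of the 7 had a difference above 0. The call of Kcnj8 ended without any single control heart and without MHC-Plin5 2 or 3 (limma adjusted p from 0.0734 to 0.129). It also ended with arrays centred on their medians (0.0867), with the replicate block (0.0887) and without both control 2 and MHC-Plin5 4 (0.0694). The 7 atrial markers had a median of 0.79 and mean levels from 7.13 to 10.59 in control and from 7.80 to 10.73 in MHC-Plin5 hearts, with 0 called. Nppa had the smallest p of this list (1.08, SE 0.44, limma adjusted p = 0.238). Single atrial markers varied widely within both groups, as Myl7 did from 6.35 to 12.92 in control and from 5.98 to 11.90 in MHC-Plin5 hearts. By heart the mean deviation of the atrial markers was -1.21, 0.71, -1.48 and 1.98 in control hearts 1 to 4. In MHC-Plin5 hearts 1 to 4 it was 0.24, -0.81, 2.12 and 1.26. Whether the samples held unlike amounts of atrial tissue was not tested. Medians were -0.58 for 5 adipocyte, -0.14 for 4 lymphocyte and -0.25 for 2 Schwann cell markers, and the erythroid marker Alas2 had -0.21, with 0 called in each list. Control 4 stood apart in the adipocyte markers, with a mean deviation of 1.1. The other control hearts had -0.63 to -0.01 and the MHC-Plin5 hearts -0.65 to -0.12. The part of these cell types in the values of the 10 genes was not tested.

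Around the 10 genes, 88 further genes of mitochondrial shape and genome upkeep were measured, from 9 lists. In limma, 3 of the 88 rose and 1 fell, where 2.08% of all genes were called higher and 1.17% lower. The lists were chosen with earlier results of these data known, so setting these shares side by side does not test the lists. The 3 that rose were Slc25a33, Lonp1 and Kif5b, and the 1 that fell was Mpv17. Slc25a33, Mpv17 and Lonp1, from the lists of replication, nucleotide supply and nucleoid, stayed called with any 1 heart left out. The count of called genes was 13 without MHC-Plin5 4, a fit that called 5.89% of all genes and not 3.25%, and Dguok, Endog, Micos10, Miga2, Mtfp1, Pink1, Ppargc1a, Sirt3 and Spire1 joined the 4. Without MHC-Plin5 1 it was 7, with Lrpprc, Mterf2 and Ppargc1a (3.42% of all genes called), and with array weights 12 (8.15%).

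Slc25a33, a carrier that brings pyrimidine nucleotides into mitochondria, stood at 6.50, 6.18, 6.59 and 6.42 in control hearts 1 to 4 and at 7.47, 7.83, 7.87 and 7.48 in MHC-Plin5 hearts 1 to 4. The lowest MHC-Plin5 heart was 0.88 above the highest control. It was 2.36-fold higher (log2 difference 1.24, SE 0.13, limma adjusted p = 0.000803). Lonp1, the matrix protease that degrades Tfam among other proteins, stood at 8.90, 8.98, 8.91 and 8.67 in control hearts 1 to 4 and at 9.82, 9.79, 9.86 and 9.95 in MHC-Plin5 hearts 1 to 4. Every MHC-Plin5 heart was higher by at least 0.81 than every control, and the fold was 1.99 (log2 difference 0.99, SE 0.10, limma adjusted p = 0.000508).

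Mpv17, an inner membrane protein whose loss depletes mitochondrial DNA, stood at 10.97, 10.95, 10.77 and 10.80 in control hearts 1 to 4. In MHC-Plin5 hearts 1 to 4 it had 10.06, 9.89, 9.88 and 10.16. The groups were 0.62 apart, and it fell by 0.88 on the log2 scale (SE 0.10, limma adjusted p = 0.00129), or to 0.544 of the control level. Kif5b, a kinesin motor that carries mitochondria and other cargo along microtubules, had 10.40, 10.56, 10.32 and 10.30 in control hearts 1 to 4 and 10.73, 11.25, 11.17 and 10.73 in MHC-Plin5 hearts 1 to 4. The groups did not overlap, and MHC-Plin5 2 and 3 were highest. Its difference of 0.58 (SE 0.14, limma adjusted p = 0.0482) was near the threshold. The call ended without any single control heart, without MHC-Plin5 2 or without MHC-Plin5 3 (adjusted p from 0.0727 to 0.147), with a covariate for the array median (0.0717) and with the replicate block (0.0506).

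**Figure D4:**
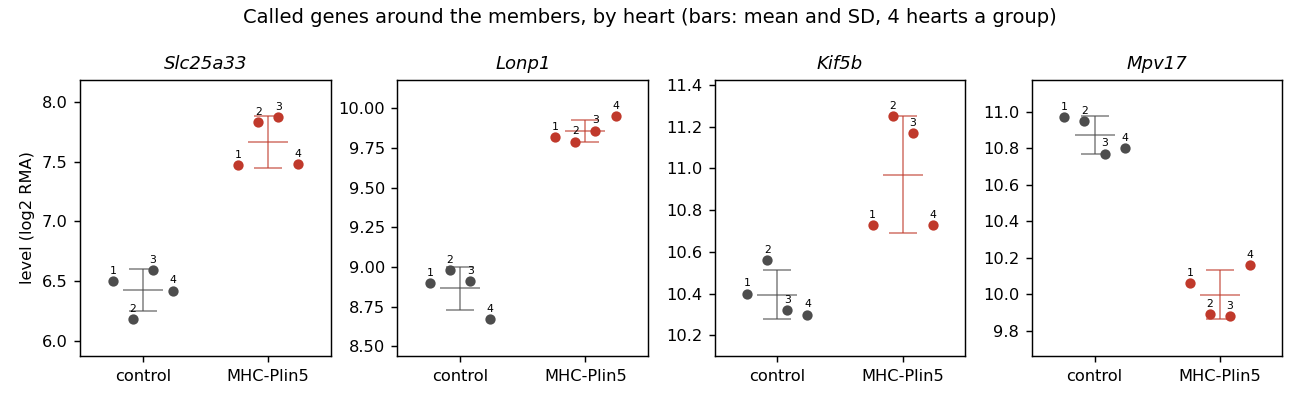
Log2 level of the 4 called genes around the members (vertical axis, a scale of its own in each panel) in control hearts (grey) and MHC-Plin5 hearts (red), with heart numbers, mean and SD. No panel has overlapping groups, and the gap between groups runs from 0.17 in Kif5b to 0.88 in Slc25a33.

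In the lists of fusion and fission, 0 of 14 and 0 of 13 measured genes were called, the members included. Medians were -0.07 and -0.08. The fusion list holds regulators with differences above 0 that were not called, such as Usp30, a deubiquitinase of the outer membrane (0.29, SE 0.09, limma adjusted p = 0.133). Among the fission genes Spire1, an actin nucleator, had 0.72 (SE 0.18, limma adjusted p = 0.0574), Mtfp1, a fission protein of the inner membrane, -0.62 (SE 0.20, adjusted p = 0.134) and the dynamin Dnm2 0.24 (adjusted p = 0.181). The median of the fusion list was -0.02 with arrays centred on their medians and -0.11 after quantile normalization.

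Cristae are organised by the MICOS complex, of whose list 8 genes were measured and 0 called (median -0.10). Chchd6, a MICOS subunit, had 0.26 (limma adjusted p = 0.183) and Micos10, another, -0.39 (adjusted p = 0.205). Besides Kif5b the transport list held 4 measured genes with differences from -0.13 to 0.10, among them Rhot1 (Miro1), the anchor of motors on mitochondria (-0.13, limma adjusted p = 0.526). In the mitophagy list, 0 of 9 genes were called (median -0.05), with Pink1, the kinase that marks damaged mitochondria, at -0.49 (SE 0.16, limma adjusted p = 0.137).

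Replication and nucleotide supply made up a list of 21 measured genes, with Slc25a33 called higher, Mpv17 called lower and a median of 0.02. Dguok, a mitochondrial deoxynucleoside kinase, had -0.41 (SE 0.10, limma adjusted p = 0.0638), and Endog, a mitochondrial nuclease, -0.34 (adjusted p = 0.338). In the list of transcription and nucleoid genes, Lonp1 was the 1 called of 14 (median -0.10). Lrpprc, which stabilises mitochondrial mRNA, had -0.40 (SE 0.13, limma adjusted p = 0.126), and Mterf2, a factor of mitochondrial transcription, -0.56 (SE 0.19, adjusted p = 0.166).

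Nuclear regulators had 0 of 14 genes called and a median of -0.05. Ppargc1a (PGC-1α), a coactivator of Nrf1, had -0.61 (SE 0.17, limma adjusted p = 0.0855), with all MHC-Plin5 hearts (10.53 to 11.35) below all control hearts (11.54 to 11.72), and Pprc1, a related coactivator, had 0.36 (SE 0.11, adjusted p = 0.121). Sirt3, a mitochondrial deacetylase, had -0.39 (limma adjusted p = 0.253). Of the 15 genes in the list of mitochondrially encoded genes and RNAs, 2 had a row with 1 symbol. ND3, a subunit of complex I, had 13.34, 13.47, 13.49 and 13.36 in control hearts 1 to 4 and 13.39, 13.36, 13.21 and 13.27 in MHC-Plin5 hearts 1 to 4 (difference -0.11, SE 0.09, limma adjusted p = 0.623). COX2, a subunit of complex IV, had a difference of -0.05 (SE 0.10, 95% interval -0.27 to 0.16, limma adjusted p = 0.844). In both genes the groups overlapped. Probes for these genes may also read nuclear copies of mitochondrial sequence.

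**Figure D5:**
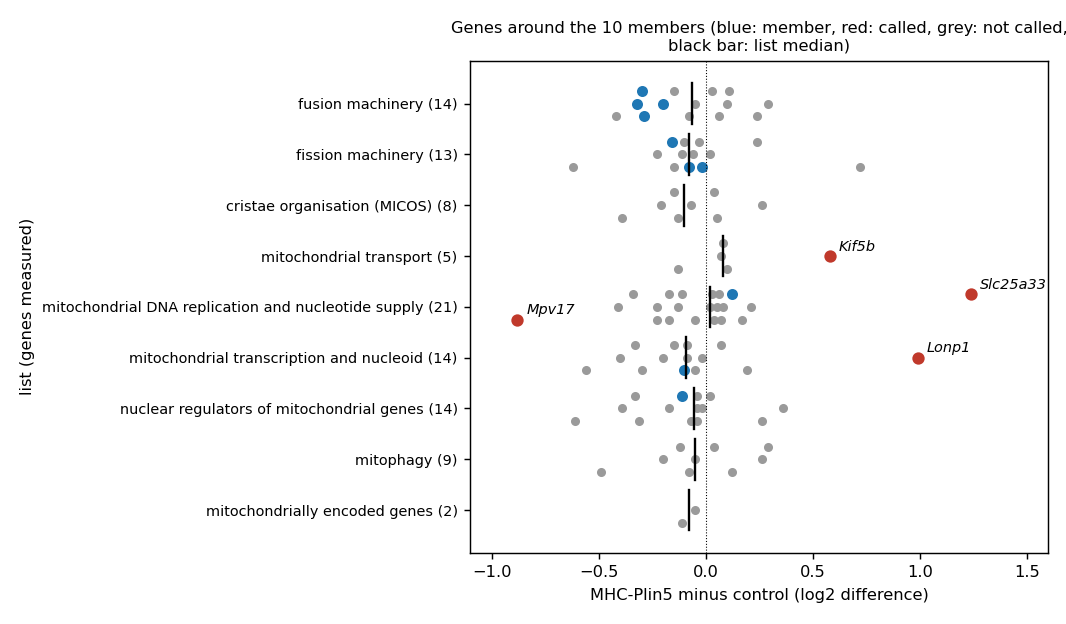
Log2 difference, MHC-Plin5 minus control (horizontal axis), of every measured gene in 9 lists (vertical axis, number measured in brackets), with members in blue, called genes in red, others in grey and list medians as black bars; vertical scatter within a list only separates points. List medians run from -0.10 to 0.08; Slc25a33, Lonp1 and Mpv17 lie farthest from 0, while Kif5b (0.58) lies closer to 0 than the uncalled Spire1 (0.72), Mtfp1 (-0.62) and Ppargc1a (-0.61).

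For Opa1 and Mfn1, the members with the smallest p, the genes with the most similar profile were sought over all 8 hearts. Likeness was the root mean square distance between log2 profiles, each centred on its mean. Closest to Opa1 were Fbxl12 (distance 0.048, difference -0.29), Zfp943 (0.051, -0.28) and Wdr92 (0.051, -0.32). Closest to Mfn1 were Poldip2 (0.047, difference -0.28), Rif1 (0.049, -0.23) and Apip (0.060, -0.32). None of these 6 genes was called in limma (adjusted p from 0.132 to 0.259). Their similar differences follow from choosing profiles close to uncalled members over the same hearts.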

How the data were processed

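Per the submitters' processing notes, the authors used RMA in Affymetrix Expression Console, which corrects background, equalises arrays by quantiles and summarises probes, and they deposited the resulting log2 values. Its version, its summary level and the genome build were not given in the sources used here. Of 35556 rows, 21789 had exactly 1 gene symbol in GEO's annotation of the platform. They gave 19938 genes, each read from its brightest row on average, with no filter on dim rows. The test was limma 3.58.1 (lmFit, eBayes) in R 4.3.3 (no trend, not robust, genotype as the only term, two-sided), with Benjamini-Hochberg adjustment over all genes. The labels number hearts 1 to 4 in each group but do not say that numbers pair hearts. The number of arrays, 4 a group, limits the precision, and no batch could be tested without scan dates. The series counts mice, so each heart was taken as an animal.

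The members and the 9 pathway and 10 cell type lists were chosen with earlier results of these data known. Of 122 pathway entries 100 were matched, with mt-Co2 and mt-Nd3 read as COX2 and ND3. Named genes are the members, every called gene of a pathway list with up to 3 more of the smallest p, up to 2 markers of each cell type, and 3 genes nearest in profile to each of 2 members. For some lists fewer are named. The fit was checked on simulated data of 19938 genes, with each true log2 change given to 50 genes. It called 2% of the changes of -0.3, 20% of those of -0.5, 32% of those of 0.5 and 88% of those of 1. There were 3 false calls. The changed genes were drawn at random over all genes and were fewer than the 648 called in the real fit. These shares therefore need not hold for the members. Alternatives were a filter at a mean of 5, quantile normalization once more, centring on array medians, an intensity trend (alone or with robust variances), weighting of arrays, averaging of a gene's rows, the heart number as a block, the array median as a covariate, a fit without control 2 and MHC-Plin5 4, and each heart left out.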

Additional observations from a re-analysis of the deposited data

Results flagged for a closer look

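Opa1 in MHC-Plin5 1 stood apart from the other 3 hearts of its group, at 10.56 against 10.35 to 10.38 on the log2 scale. The gap was 0.837 of the group's whole range, just above what Dixon's test allows for 4 samples at the 95% level. It was the 1 such case in 30 groups of 4 hearts that were examined, and chance gives about 1 in 20. Without this heart the difference of Opa1 was -0.37.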

How the results depend on the processing

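The count of called members stayed at 0 under 17 of 18 alternatives and was 2 with array weights (Opa1 and Oma1), a setting in which 884 genes were called higher and 741 lower over the whole table, against 415 and 233. With 1 heart left out it was 0 each time, and with the replicate block 0. Across 180 member differences, 174 kept their sign and side of the threshold. Mff turned to 0.02 with median centring, to 0.00 with a covariate for the array median and to 0.01 without control 2 (-0.05 to 0.01 with 1 heart left out), and Nrf1 to 0.01 without MHC-Plin5 4 (-0.21 to 0.01). The 4 called genes among the 88 around the members were 12 with array weights, and 3 to 13 with 1 heart left out (13 without MHC-Plin5 4, where 5.89% of all genes were called, and 7 without MHC-Plin5 1, where 3.42% were, against 3.25%). Plin5 ran from 3.44 to 3.65 with 1 heart left out and was called under all alternatives. The labels do not say whether heart numbers pair hearts. Deviations of hearts with the same number correlated at 0.187, 0.025, -0.107 and -0.040, values too few to settle it. The replicate block moved the calls over all genes to 330 higher and 177 lower. The cause of these shifts was not tested. With 4 hearts a group, the 95% intervals of the members reach 0.19 to 0.31 to either side of the estimate.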
